A study of Mus musculus with 4 samples.

Results

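Solute carrier genes, named Slc followed by a family number, were examined for chromatin accessibility at their promoters in quiescent satellite cells, which are stem cells of skeletal muscle. Members are regions linked to a protein-coding gene of that name whose centre lies at most 1000 bases from the gene's start. The rule found 179 regions at 172 genes, of 35019 regions in the whole table, and 178 of the 179 passed the filter on low values. Another 25 regions linked to Slc genes lie further from the start, which brings the total to 204 regions at 189 genes. The members belong to 39 families, and 7 genes have 2 promoter regions.

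Accessibility was measured by ATAC-seq, in which Tn5 transposase cuts open chromatin, in sorted satellite cells of mdx mice and of wild type mice. The mdx genotype, a model of muscular dystrophy, carries a mutation of the dystrophin gene Dmd. The labels give no strain, age, sex or treatment for either group. Of the 3 mice per condition that the design mentions, 2 libraries per group were analysed here. The labels do not say whether libraries of a group stem from different animals, and p-values then reflect only the spread between libraries, which may be technical. Values are scaled reads per region, that is reads multiplied by 1 factor per library by the authors, and coordinates are mm10.

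Solute carriers are membrane proteins that move small molecules across the plasma membrane and the membranes of organelles. They carry amino acids, sugars, metal ions, inorganic ions, vitamins and nucleotides, and most of the Slc25 family sits in the inner mitochondrial membrane. Muscle relies on them for glucose and amino acid uptake, for lactate export and for creatine, taurine and carnitine import. Several of their genes are known targets of transcription factors that sense nutrients or metals: ATF4 acts at amino acid transporter genes and MTF1 at the zinc exporter gene Slc30a1.

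Promoter sequence was taken from RefSeq (GRCm38.p6), as windows from 250 bases before to 50 bases after a start. Of the 172 genes, 133 had a window in that table, and for 117 of them a window on the gene's strand overlapped the accessible region. These 117 windows had a median of 63.7% G and C and 21 CG dinucleotides, against 62.7% and 23 in 6907 windows of other genes with a promoter region. All 32841 windows of the table had medians of 52.7% and 7. The motif GGGCGG, the GC box, was present on either strand in 81.2% of the Slc windows, in 73.1% of the windows of other genes with a promoter region and in 35.7% of all windows. CACGTG, the E-box, was in 19 Slc windows (16.2%), against 10.7% of other genes with a promoter region and 7.15% of all windows. CCAAT was in 46 of the 117 Slc windows, against 2764 of the 6907 windows of other genes with a promoter region. TATAAA was in 5 Slc windows (4.27%), those of Slc20a1, Slc2a1, Slc30a6, Slc35a1 and Slc35b3, against 5.65% and 13.6%. TGCNCNC, a looser form of the core of the metal response element, was in 59.0%, against 62.6% and 51.0%. The cyclic AMP response element TGACGTCA was in 1.71%, against 4.14% and 1.79%, and the AP-1 motif TGANTCA in 3.42%, against 4.05% and 7.81%. The NRF1 motif was in 0 Slc windows, against 2.42% and 0.971%. These shares describe letters, and a match is not a measured binding site.

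TGATGNAA, the composite ATF4 and C/EBP motif, was in 2 Slc windows (1.71%), those of Slc7a11 and Slc1a4, against 1.68% of other genes with a promoter region and 3.97% of all windows. Slc7a11, the cystine/glutamate exchanger, had the lowest accessibility per kb of region of the 179 members, and Slc1a4, an exchanger of small neutral amino acids, had the highest. The 5 windows below are shown because they belong to the members with the smallest p (Slc4a4), with that motif at either end of the level range (Slc7a11, Slc1a4), with the metal response core (Slc30a1) and with the closest agreement between groups at a high level (Slc20a1). The Slc4a4 window is chr5:88887010-88887309 on the plus strand, and the capitals mark its 50 CG dinucleotides. The Slc7a11 window is chr3:50443564-50443863 on the minus strand, with 4 CG dinucleotides, and the capitals mark 2 matches of TGATGNAA, 1 on each strand. The Slc1a4 window is chr11:20332664-20332963 on the minus strand, with 1 match of the same motif in capitals. The Slc30a1 window is chr1:191906531-191906830 on the plus strand, and the capitals mark 2 matches of TGCNCNC, both on the opposite strand. The Slc20a1 window is chr2:129198523-129198822 on the plus strand, and the capitals mark 2 matches of CACGTG and 1 of TATAAA. The matches of listed motifs marked in the last 4 windows overlap no match of another listed motif.
Slc4a4: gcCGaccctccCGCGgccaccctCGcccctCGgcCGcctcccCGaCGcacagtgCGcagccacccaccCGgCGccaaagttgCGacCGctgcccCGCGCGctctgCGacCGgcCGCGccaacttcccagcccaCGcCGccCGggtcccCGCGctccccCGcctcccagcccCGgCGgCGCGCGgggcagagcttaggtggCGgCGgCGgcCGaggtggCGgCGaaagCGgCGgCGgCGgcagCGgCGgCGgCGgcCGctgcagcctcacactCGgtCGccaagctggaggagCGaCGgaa
Slc7a11: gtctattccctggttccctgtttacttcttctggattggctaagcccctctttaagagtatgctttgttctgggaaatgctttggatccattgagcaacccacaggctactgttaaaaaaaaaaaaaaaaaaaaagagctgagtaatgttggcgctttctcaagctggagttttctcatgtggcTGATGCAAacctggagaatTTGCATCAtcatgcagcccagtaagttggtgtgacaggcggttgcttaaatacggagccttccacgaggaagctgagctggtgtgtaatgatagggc
Slc1a4: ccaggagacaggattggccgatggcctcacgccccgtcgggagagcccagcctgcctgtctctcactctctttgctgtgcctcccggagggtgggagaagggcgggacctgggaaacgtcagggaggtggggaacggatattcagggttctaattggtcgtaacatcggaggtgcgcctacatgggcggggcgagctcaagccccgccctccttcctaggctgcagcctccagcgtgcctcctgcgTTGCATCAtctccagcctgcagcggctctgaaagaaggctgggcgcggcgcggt
Slc30a1: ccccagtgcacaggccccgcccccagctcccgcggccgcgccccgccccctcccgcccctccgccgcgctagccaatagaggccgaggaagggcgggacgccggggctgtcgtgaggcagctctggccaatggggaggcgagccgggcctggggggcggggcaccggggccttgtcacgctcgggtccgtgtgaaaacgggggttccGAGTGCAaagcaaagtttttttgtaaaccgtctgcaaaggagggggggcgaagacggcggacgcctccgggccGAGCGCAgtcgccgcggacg
Slc20a1: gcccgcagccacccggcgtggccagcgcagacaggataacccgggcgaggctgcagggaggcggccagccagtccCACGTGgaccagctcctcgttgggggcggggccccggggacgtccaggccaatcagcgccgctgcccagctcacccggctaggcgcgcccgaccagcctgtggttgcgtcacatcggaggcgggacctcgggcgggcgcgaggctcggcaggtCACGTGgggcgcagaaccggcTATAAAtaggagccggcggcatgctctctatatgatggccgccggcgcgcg

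Reads recovered over all listed regions numbered 3208475 and 3607633 for mdx, against 3693096 and 8165826 for wild type. Counting error is therefore smallest in wild type replicate 2. The Slc promoter regions held 19129 and 24170 of them in mdx and 28859 and 65075 in wild type. As a share of all promoter reads this was 1.42% and 1.4% in mdx and 1.45% and 1.47% in wild type. Out of nuclear reads the share was 0.725% and 0.777% for mdx, against 0.909% and 0.879% for wild type. Promoters as a whole took up 51.1% and 55.4% of the nuclear reads of mdx, against 62.7% and 59.6% for wild type, and the part of this difference in the results below was not tested. Of 12 satellite cell markers, 7 had a promoter region. Their summed scaled reads were 1155 and 1298 in mdx and 1646 and 1575 in wild type. Of the 8 regions of these markers, 1 fell (limma), against 1.74% of promoter regions other than Slc and 0.881% of all tested regions. The region that fell, at Met, held 265 and 352 in mdx and 627 and 542 in wild type (limma adjusted p = 0.0231). On the log2 scale, Pax7 (-0.16) and the 2 Myf5 regions (-0.09 and 0.02) were nearest 0. Sdc4 (-0.195), Myod1 (-0.26), Heyl (-0.34) and Chrdl2 (-0.62) were lower and did not pass. The median of the 8 regions was -0.23, against -0.25 for promoter regions other than Slc. Regions at 5 of 8 markers of fibro-adipogenic progenitors, which form connective tissue, summed to 343 and 350 in mdx and 185 and 221 in wild type. Regions at 3 of 8 muscle fibre markers summed to 207 and 194 in mdx and 90 and 128 in wild type. Of these, 1 rose (Casq1, limma adjusted p = 0.0344), against 0.673% of promoter regions other than Slc and 3.3% of all tested regions. Myh1 (0.78) and Pvalb (-0.34) lay on opposite sides of 0 and did not pass. Of 7 endothelial markers only Tek had a region, and 0 of 8 leukocyte and 0 of 5 tendon and Schwann cell markers had one. The part of these markers in the results was not tested. In bulk cells, fewer cells with an open promoter and less opening per cell cannot be told apart.

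Of the 178 tested Slc promoter regions, 3 fell and 0 rose in mdx (limma, Benjamini-Hochberg over 33161 regions, threshold 0.05). These were the regions of Slc4a4, Slc1a3 and Slc22a3. The share that fell was 1.69%, against 1.74% of 10845 other tested promoter regions and 0.881% of all tested regions. The share that rose was 0.0%, against 0.673% and 3.3%. At an unadjusted p under 0.05, 40 members were lower (22.5%) and 2 higher (1.12%) by limma, against 17.8% and 2.95% of other promoters and 9.15% and 13.8% of all tested regions. Of the 9842 other promoters of protein-coding genes, 1859 were lower and 198 higher at that threshold. Voom on the recovered reads called 3 lower and 0 higher, of which Slc4a4 and Slc1a3 are shared, Slc22a3 is lost and Slc4a7 is added. The shares that fell and rose are near those of other promoters, so the count of calls sets the transporters apart in neither direction. The call count depended on the scaling: 47 members were called lower when distal medians were equalised, under which the median over all tested regions was -0.35 in place of -0.01, and 8 with trimmed means. These are 26.4% and 4.49% of the members, against 21.5% and 3.58% of other promoters under the same settings. Of all tested regions, 10.4% and 1.84% were called lower there.

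The Slc4a4 promoter region, at an electrogenic sodium bicarbonate cotransporter, spans positions 88886472 to 88887285 of chromosome 5. Its centre is 61 bases from the start, and 0.6 of its length lies in the gene body, per the deposited annotation. It held 106 and 82 scaled reads in the mdx libraries, against 377 and 284 for wild type. The highest mdx library was far below the lowest wild type library. In log2 terms mdx stood at -1.80 (SE 0.24), or 3.48-fold lower in mdx (limma, adjusted p = 0.00487). Counts of 148 reads for mdx and 886 for wild type gave a ratio of 0.301, with a 95% exact binomial interval of 0.251 to 0.358 that covers counting error only. This call held in each of the 12 alternatives of the fit that kept all libraries.

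The Slc1a3 region, at a glutamate and aspartate transporter known from astrocytes, spans positions 8710202 to 8710599 of chromosome 15. It lies inside the gene, with its centre 363 bases from the start. It held 7 and 12 scaled reads in mdx, against 53 and 52 in wild type. The 2 wild type values were nearly equal and both several times above both mdx values. Its log2 fold change came to -2.39, SE 0.48 (limma, adjusted p = 0.0213), and the counting ratio was 0.181 with an interval of 0.0989 to 0.309. The call held in the 11 alternatives that tested it with all libraries, and the region was not tested at a mean value of at least 50.

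The Slc22a3 region, at an organic cation transporter with low substrate selectivity, spans positions 12507240 to 12507511 of chromosome 17 and also lies inside its gene, 328 bases from the start by its centre. It held 3 and 3 scaled reads in mdx, against 35 and 23 in wild type. The mdx values stand for 2 and 3 reads, against 29 and 47 reads in wild type. Its log2 fold change came to -2.88, SE 0.65 (limma, adjusted p = 0.0311), and the counting ratio was 0.118 with an interval of 0.0374 to 0.289. The region passed the filter on low values only through the wild type libraries, so it had to differ, as did 3 other members. The call ended with no filter (adjusted p = 0.0547) and with voom on recovered reads (adjusted p = 0.0712). When any 1 library was left out, its group had a single library, assumed to vary like the other group, and 0 of the 178 members and 0 of all 33161 regions passed (limma), so these fits say nothing about single calls. In those fits the log2 fold change ran from -2.00 to -1.60 for Slc4a4, from -2.74 to -2.04 for Slc1a3 and from -3.17 to -2.58 for Slc22a3.

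**Figure D1:**
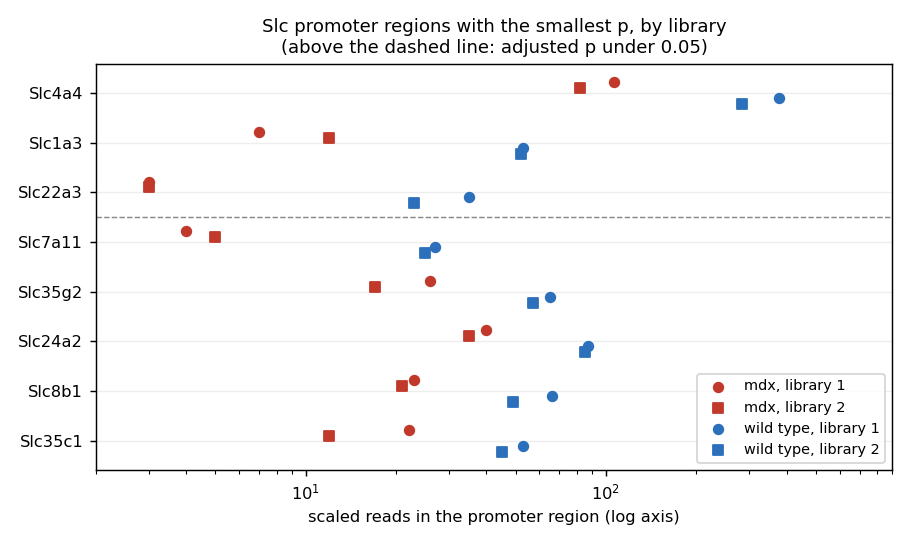
Scaled reads (horizontal log axis) in the 8 Slc promoter regions with the smallest p, with 1 point per library, mdx in red above wild type in blue. Regions above the dashed line passed. The 8 were chosen by p, and Slc22a3 and Slc7a11 met the filter on low values only through wild type, so the gaps are a description.

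The members next to the threshold did not pass. Slc7a11 supplies cystine for glutathione synthesis, and its region is nearly covered by the window with the 2 ATF4-type matches. It held 4 and 5 scaled reads in mdx, against 27 and 25 in wild type (log2 fold change -2.30, SE 0.61; limma, adjusted p = 0.0531). They stand for 7 reads in mdx against 73 in wild type, or a ratio of 0.173 with an interval of 0.067 to 0.374. Its filter was met only through wild type, and it passed as lower in 6 alternatives: trimmed means (adjusted p = 0.0357), distal medians set equal (0.0104), cyclic loess (0.0409), a pseudocount of 10 (0.0268), the replicate block (0.0296) and crossed pairing (0.0143). Slc35g2, a member of the nucleotide sugar transporter family, held 26 and 17 in mdx and 65 and 57 in wild type (-1.49, adjusted p = 0.0546). Slc24a2, a potassium-dependent sodium/calcium exchanger known from neurons and cones, held 40 and 35 in mdx and 87 and 85 in wild type (-1.18, adjusted p = 0.0573). Slc8b1, the mitochondrial sodium/calcium exchanger, held 23 and 21 in mdx and 66 and 49 in wild type (-1.33, adjusted p = 0.0718). Slc35c1, the GDP-fucose transporter of the Golgi, held 22 and 12 in mdx and 53 and 45 in wild type (-1.53, adjusted p = 0.0727). These 5 were chosen by their p, so the gap between their groups is a description. Slc24a2 and Slc35g2 passed as lower in 7 alternatives each, Slc35c1 in 5 and Slc8b1 in 3.

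Over all 178 tested members the median log2 fold change was -0.31, against -0.25 for other promoter regions, -0.01 for all tested regions and 0.19 for tested regions further from a start or with no gene. Of the members, 145 (81.5%) were below 0, against 74.9% of other promoters. The other promoters include further gene types, while members are protein-coding by rule. The 9842 other promoters of protein-coding genes had a median of -0.26, with 77.4% below 0. The middle of the distribution, from its lower to its upper quartile, ran from -0.55 to -0.13. Both mdx libraries lay below both wild type libraries in 99 members (55.6%), against 43.6% of other promoters and 25.9% of all tested regions. They lay above in 11 members (6.18%), against 10.2% and 26.8%. In the other 68 members the groups overlapped. The difference between the Slc promoters and other promoters was not tested. Of the 178 members, 19 differed by more than 1 on the log2 scale, against 636 of 10845 other promoters. Most of these had a mean value under 50, namely 15 of the 19 members and 434 of the 636 others. The 19 include the 4 members that met the filter on low values only through wild type. They also include the 1 member that met it only through mdx, and the filter set the direction of all of these. A difference of less than 0.5 was found in 117 members, against 7610 of the other promoters. When promoter medians were equalised, the median over all tested regions became 0.19 and that of the members -0.11. With distal medians set equal it was -0.65.

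**Figure D2:**
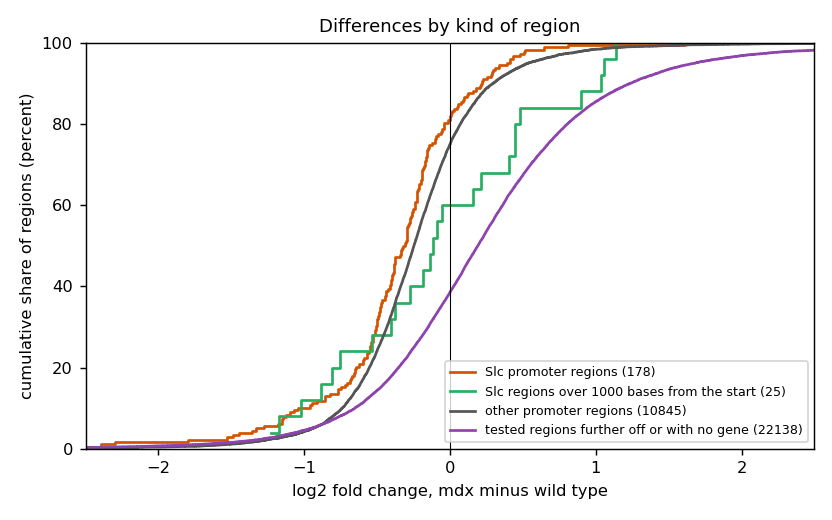
Cumulative share of regions (vertical axis, percent) by log2 difference of mdx from wild type (horizontal axis), for Slc promoter regions, Slc regions further from the start, other promoter regions and the remaining tested regions. The curve of the Slc promoters runs close to that of the other promoters, with 81.5% and 74.9% below 0.

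Accessibility per kb of region spanned a wide range across the transporters. The mean of the 4 libraries ran from 47.2 to 1370 scaled reads per kb over the tested members, with a median of 182, against 220 in other promoter regions. The 5 highest were Slc1a4, Slc19a2, Slc39a10, Slc20a1 and Slc44a1. Slc1a4 had 1190 per kb in mdx and 1550 in wild type. Slc19a2, a thiamine transporter, had 1140 and 1440. Slc39a10, a zinc importer, had 1110 and 1230, and Slc20a1, a sodium-dependent phosphate transporter and retroviral receptor, had 976 and 974. Slc44a1, a choline transporter, had 755 in mdx and 1080 in wild type. None of these 5 passed (limma, adjusted p = 0.153, 0.206, 0.507, 0.997 and 0.0895), although Slc44a1 passed as lower in 3 alternatives, a mean value of at least 50 (adjusted p = 0.0447), distal medians set equal (0.0145) and crossed pairing (0.00339). Slc20a1 stood out from the other 4 by its near-equal groups, at 781 and 741 scaled reads in mdx, against 743 and 777 in wild type.

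The 5 lowest per kb were Slc7a11, Slc8a2, Slc22a3, Slc1a1 and Slc26a4. Slc8a2, a plasma membrane sodium/calcium exchanger, held 6 and 6 scaled reads in mdx, against 11 and 17 in wild type (-1.07, adjusted p = 0.364). Slc26a4, the anion exchanger pendrin, which also met the filter only through wild type, held 3 and 7 in mdx and 13 and 14 in wild type (-1.36, adjusted p = 0.282). Slc1a1, a neuronal glutamate transporter, held 6 and 7 in mdx and 9 and 9 in wild type and is the 1 member that was not tested. Across the members the log2 fold change rose only weakly with the level per kb, with a Spearman rho of 0.17 over 178 regions, against 0.04 over the other promoters. The regions share their libraries and depth, so this is a description. Slc7a11, Slc8a2, Slc22a3 and Slc26a4, at the low end, met the filter only through wild type, so the filter set their direction. Their negative values enter this rho and the median of the members under 50 given next. By mean value, the 54 members under 50 had a median log2 fold change of -0.46, against -0.29 for other promoters of that level. The 76 members from 50 to 200 had -0.25, against -0.22, and the 48 members of 200 or more had -0.30, against -0.26.

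**Figure D3:**
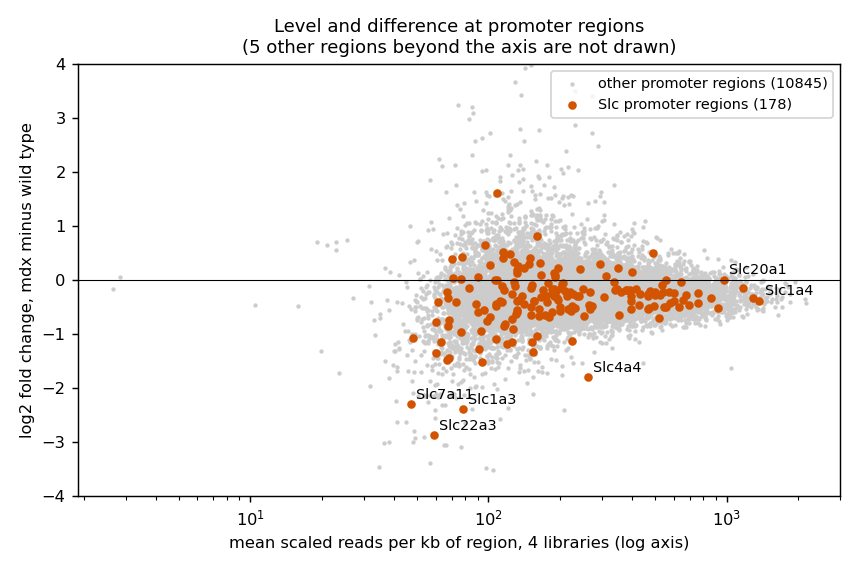
Log2 difference of mdx from wild type (vertical axis) by mean scaled reads per kb of region over 4 libraries (horizontal log axis), for 178 Slc promoter regions and 10845 others, of which 5 lie beyond the axis and are not drawn. The members named at the lower edge, Slc4a4, Slc1a3, Slc22a3 and Slc7a11, lie apart from Slc1a4 and Slc20a1 at the high end.

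By substrate, the members fell into 10 classes of family numbers. Their median log2 fold changes lay between -0.48 and -0.26, below 0 in all 10. With promoter medians set equal the class medians stayed below 0, from -0.28 to -0.06. The median of other promoters under this scaling is not given here, so 0 cannot be read as their level. The classes of nucleosides, vitamins, haem, lipids and choline (-0.48, 13 regions) and of organic ions and vesicular transmitters (-0.48, 10 regions) had the lowest medians, and differences between classes were not tested. The counts of members at an unadjusted p under 0.05 in each class are read beside the other promoters, of which 17.8% were lower and 2.95% higher.

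Transporters of amino acids and peptides had 24 promoter regions at 23 genes. Of the 23 tested regions, 1 fell (Slc1a3) and 0 rose, and 17 lay below 0, with a median of -0.30. At an unadjusted p under 0.05, 4 were lower and 0 higher (limma), against 17.8% and 2.95% of other promoters. Slc7a5, the large neutral amino acid exchanger that feeds mTORC1, held 41 and 53 scaled reads in mdx, against 60 and 55 in wild type (-0.30, adjusted p = 0.639). Its heavy chain partner Slc3a2 held 75 and 98 in mdx and 114 and 97 in wild type (-0.29, adjusted p = 0.569). Both log2 fold changes lay near the class median of -0.30 and the -0.25 of other promoters, and the groups overlapped at Slc3a2. Slc1a5, a glutamine transporter, held 29 and 36 in mdx and 42 and 47 in wild type (-0.45, adjusted p = 0.513). Slc38a2, the amino acid transporter that adapts to starvation, held 166 and 146 in mdx and 271 and 191 in wild type at the region nearest its start (-0.54, adjusted p = 0.191). Its second region, 638 bases from the start, held 166 and 115 in mdx and 215 and 175 in wild type (-0.49, adjusted p = 0.271). Both Slc38a2 regions thus gave values of about the same size, and the second one was added after its values were seen.

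Slc1a4, with the single ATF4-type match, held 969 and 1213 scaled reads in mdx, against 1515 and 1320 in wild type (-0.38, adjusted p = 0.153). Slc6a6, the taurine transporter, held 70 and 79 in mdx and 106 and 105 in wild type (-0.50, adjusted p = 0.297). Slc6a8, the creatine transporter, held 41 and 33 in mdx and 49 and 40 in wild type (-0.26, adjusted p = 0.717). The groups overlapped only at Slc6a8 among these 3, and 43.6% of other promoters had both mdx libraries below both wild type libraries. Slc36a4, an amino acid transporter of the proton-coupled family, had the largest positive value of this class among members with a mean of at least 50, at 167 and 163 in mdx and 143 and 141 in wild type (0.22, adjusted p = 0.606). Its sign turned with distal medians set equal (-0.12).

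Sugar transporters had 9 promoter regions, of which 0 rose and 0 fell, and 7 lay below 0 (median -0.26). At an unadjusted p under 0.05, 1 was lower and 0 higher (limma). Slc2a1, the basal glucose transporter, held 305 and 275 in mdx and 253 and 244 in wild type (0.22 with SE 0.19, adjusted p = 0.529). Of the 9 sugar regions, only this one had both mdx libraries above both wild type libraries. The same was found in 10.2% of other promoters and 26.8% of all tested regions. The sign of Slc2a1 turned with distal medians set equal (-0.12). Slc2a4, the insulin-responsive glucose transporter of muscle fibres, was near the floor, at 14 and 24 in mdx and 11 and 28 in wild type. The spread within each group was larger than the difference between groups at Slc2a4. Slc2a8, an intracellular glucose transporter, held 58 and 45 in mdx and 98 and 66 in wild type (-0.65, adjusted p = 0.268). Slc5a3, the sodium-coupled myo-inositol transporter, held 195 and 199 in mdx and 265 and 282 in wild type (-0.47, adjusted p = 0.181).

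Mitochondrial carriers of family 25 were the largest class, with 37 regions at 36 genes. None passed (limma); at an unadjusted p under 0.05, 6 of 37 were lower and 0 higher, against 17.8% and 2.95% of other promoters. Of the 37, 31 lay below 0 (median -0.29). Slc25a4, the adenine nucleotide translocator of heart and muscle, held 416 and 396 in mdx and 573 and 576 in wild type (-0.50 with SE 0.16, adjusted p = 0.0942). Replicates of each group were close at Slc25a4, and both mdx libraries lay below both wild type libraries. Slc25a5, the second adenine nucleotide translocator, held 75 and 79 in mdx and 122 and 108 in wild type at the region nearest its start (-0.57, adjusted p = 0.226), and was also named after its values were seen. Its other region, 721 bases from the start, held 76 and 85 in mdx and 115 and 77 in wild type. The groups overlapped there (-0.225, limma adjusted p = 0.691). Slc25a20, the carnitine/acylcarnitine carrier, was near the floor, at 11 and 9 in mdx and 5 and 10 in wild type (0.43, adjusted p = 0.757). Slc25a35 held 37 and 77 in mdx and 104 and 119 in wild type (-1.04, adjusted p = 0.107). The mdx libraries differed more from each other there than the wild type libraries did. Slc25a33, a pyrimidine nucleotide carrier, held 91 and 92 in mdx and 72 and 77 in wild type (0.29, adjusted p = 0.564), with a sign that turned to -0.04 with distal medians set equal.

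Ion exchangers and cotransporters had 27 regions, of which 1 fell (Slc4a4) and 0 rose, with a median of -0.33. At an unadjusted p under 0.05, 9 were lower and 1 higher (limma), against 17.8% and 2.95% of other promoters. Slc4a4 was the member of family 4 that passed, and Slc4a7, another sodium bicarbonate cotransporter, held 634 and 640 in mdx and 848 and 914 in wild type (-0.47, adjusted p = 0.0863). Slc4a7, named after its values were seen, passed as lower with voom on recovered reads, distal medians set equal and crossed pairing. All 3 members of family 8, the sodium/calcium exchangers, had both mdx libraries below both wild type libraries, with log2 fold changes of -1.33 for Slc8b1, -1.16 for Slc8a3 and -1.07 for Slc8a2, and 0 of the 3 passed. Slc8a2 passed the filter on low values only through wild type, so its separation was set by the filter, and 43.6% of other promoters had groups apart in that direction. Slc8a3 was named after its values were seen, to complete the family. Slc24a3, a potassium-dependent sodium/calcium exchanger, had the largest positive value of this class, at 86 and 94 in mdx and 48 and 54 in wild type (0.81 with SE 0.30, adjusted p = 0.135). Slc24a2 and Slc24a3, of the same family, thus lay on opposite sides, each with groups that did not overlap, and neither passed. Slc24a2 was chosen by its small p and Slc24a3 as the largest positive value of the class. Groups were apart with mdx lower in 43.6% of other promoters and 25.9% of all tested regions. They were apart with mdx higher in 10.2% and 26.8%. Slc12a2, the sodium-potassium-chloride cotransporter, held 453 and 428 in mdx and 579 and 491 in wild type (-0.28, adjusted p = 0.356).

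Transporters of zinc and other metals had 20 regions at 19 genes, with the highest median level of the 10 classes, 347 scaled reads per kb. None passed (limma); at an unadjusted p under 0.05, 4 of 20 were lower and 0 higher, against 17.8% and 2.95% of other promoters. Of the 20, 19 lay below 0 (median -0.29), against 74.9% of other promoters. Slc30a1, whose window holds the 2 TGCNCNC matches, exports zinc from the cell and held 296 and 353 in mdx and 456 and 442 in wild type (-0.47 with SE 0.18, adjusted p = 0.143). The other 4 members of family 30, a family of zinc transporters, ran from -0.53 to -0.22. All 5 had both mdx libraries below both wild type libraries, as had 43.6% of other promoters and 25.9% of all tested regions. Slc39a14, a zinc and iron importer, held 77 and 92 in mdx and 107 and 118 in wild type (-0.41, adjusted p = 0.387). Slc40a1, the iron exporter ferroportin, held 321 and 227 in mdx and 298 and 323 in wild type (-0.20, adjusted p = 0.611), with overlapping groups. Slc41a1, a magnesium transporter, held 242 and 198 in mdx and 354 and 336 in wild type (-0.65 with SE 0.20, adjusted p = 0.0787), and passed as lower in 3 alternatives, a mean value of at least 50 (adjusted p = 0.0345), distal medians set equal (0.00904) and crossed pairing (0.00792). Slc39a11 held 48 and 59 in mdx and 50 and 53 in wild type (0.05, adjusted p = 0.950), the only value above 0 in the class, and its sign turned with cyclic loess (-0.11) and with distal medians set equal (-0.29).

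**Figure D4:**
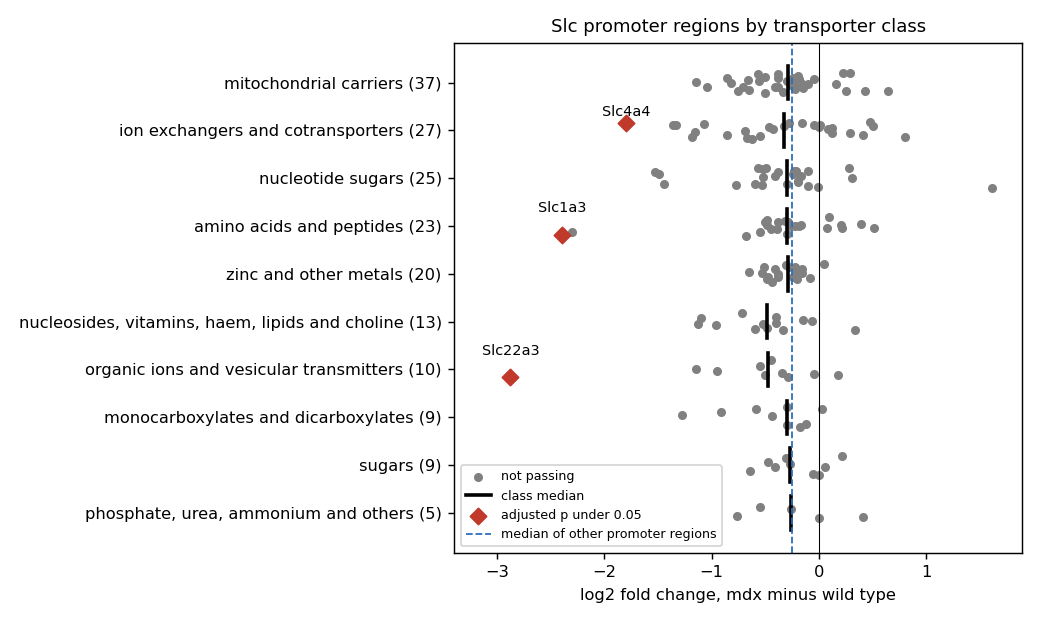
Log2 difference of mdx from wild type (horizontal axis) of each tested Slc promoter region by transporter class (number of tested regions in brackets), with class medians as black bars and the median of other promoter regions as a dashed line. The 10 class medians lie between -0.48 and -0.26, and the 3 regions that passed lie at -1.80, -2.39 and -2.88.

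Nucleotide sugar transporters of family 35, which supply the Golgi and endoplasmic reticulum, had 25 regions at 21 genes, and 0 passed (limma). At an unadjusted p under 0.05, 5 were lower and 1 higher, against 17.8% and 2.95% of other promoters, and 22 of 25 lay below 0 (median -0.29). Slc35a1, the CMP-sialic acid transporter, held 240 and 272 in mdx and 387 and 350 in wild type (-0.53, adjusted p = 0.125). Slc35b2, a transporter of the sulfate donor PAPS, held 83 and 63 in mdx and 116 and 100 in wild type (-0.57, adjusted p = 0.258). Groups did not overlap at Slc35a1 or at this Slc35b2 region, the one nearest its start, while the second Slc35b2 region held 3 and 16 in mdx and 6 and 16 in wild type. Slc35e4 held 149 and 129 in mdx and 134 and 93 in wild type (0.31, adjusted p = 0.522), with a sign that turned to -0.03 with distal medians set equal. Slc35c2, chosen here after its values were seen, has 2 promoter regions that gave different values. The region 606 bases from its start held 40 and 15 in mdx and 6 and 9 in wild type (1.61, adjusted p = 0.152), the highest log2 fold change of all tested members. It is the 1 member that met the filter on low values only through mdx, so its direction was set by the filter. The region at the start held 18 and 15 in mdx and 26 and 18 in wild type (-0.38, adjusted p = 0.694).

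Organic ion and vesicular transporters had 10 regions, of which 1 fell (Slc22a3) and 0 rose, with 4 lower and 0 higher at an unadjusted p under 0.05 (limma). Slc22a5, the carnitine transporter that muscle needs for fatty acid oxidation, held 162 and 242 in mdx and 343 and 244 in wild type (-0.54, adjusted p = 0.211). The higher mdx library and the lower wild type library nearly met at Slc22a5. Slc22a21, a carnitine transporter related to it, held 18 and 57 in mdx and 88 and 60 in wild type (-1.15, limma adjusted p = 0.176). Without 1 library the Slc22a21 value ran from -1.96 to -0.35. Slc22a15 had the largest positive value of the class, at 88 and 115 in mdx and 84 and 94 in wild type (0.18, adjusted p = 0.745), and turned to -0.16 with distal medians set equal. Monocarboxylate and dicarboxylate transporters had 9 regions, and 0 passed, with 1 lower and 0 higher at an unadjusted p under 0.05 (limma). Slc16a1, the lactate and pyruvate transporter, held 258 and 166 in mdx and 296 and 219 in wild type (-0.30, adjusted p = 0.515), with overlapping groups. Slc16a9, whose human counterpart exports carnitine, held 40 and 48 in mdx and 95 and 73 in wild type (-0.91, adjusted p = 0.121). Slc16a3, the lactate exporter, has a region further from its start but 0 promoter regions in the table, as does the nucleoside transporter Slc29a1. Slc8a1, the main sodium/calcium exchanger of the heart, has 0 linked regions in the table.

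The class of nucleosides, vitamins, haem, lipids and choline had 13 regions, and 0 passed, with 6 lower and 0 higher at an unadjusted p under 0.05 (limma). Slc48a1, a haem transporter of the endolysosome, held 43 and 55 in mdx and 88 and 74 in wild type (-0.72, adjusted p = 0.198). Slc19a2 held 1020 and 899 in mdx and 1345 and 1085 in wild type (-0.34, adjusted p = 0.206). In the last class, of phosphate, urea and ammonium transporters and others, 5 regions were tested and 0 passed, with 0 lower and 0 higher at an unadjusted p under 0.05 (limma). Slc20a1 had a log2 fold change of 0.00 with SE 0.14 in that class. Slc20a2, the related phosphate transporter, held 283 and 397 in mdx and 425 and 381 in wild type (-0.26, adjusted p = 0.468). Slc37a4, the glucose-6-phosphate transporter, held 69 and 66 in mdx and 138 and 71 in wild type (-0.55, adjusted p = 0.359), and without wild type replicate 1 its value was -0.07. Slc37a2, a sugar phosphate exchanger, held 77 and 59 in mdx and 48 and 53 in wild type (0.41, adjusted p = 0.481).

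**Figure D5:**
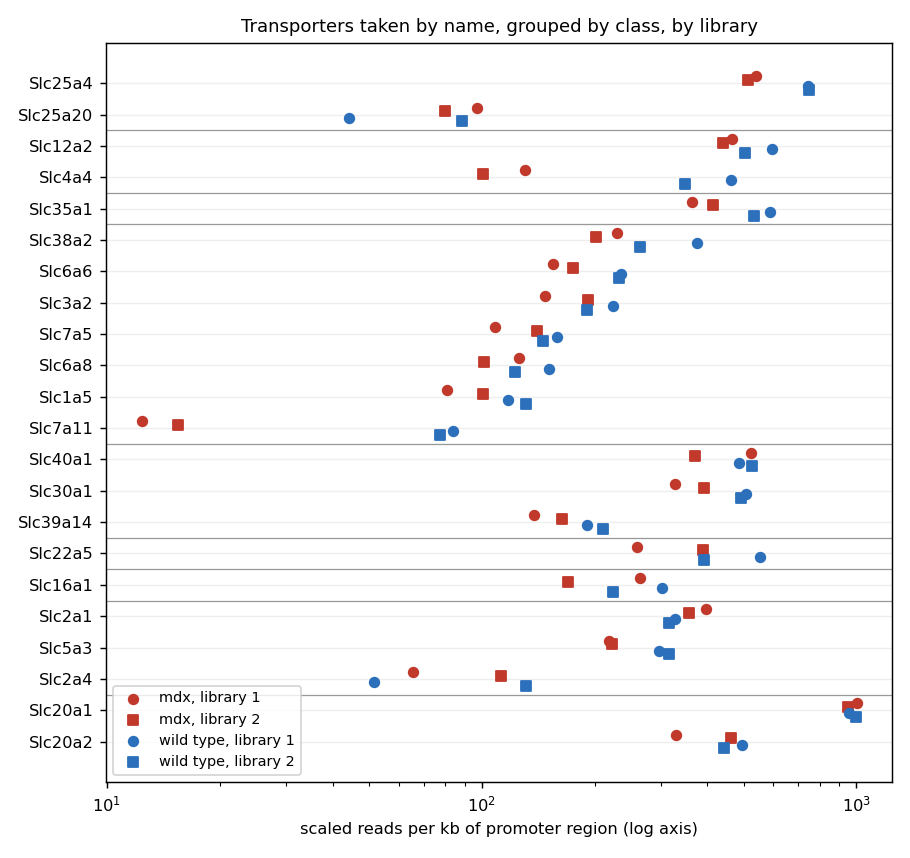
Scaled reads per kb of promoter region (horizontal log axis) for transporters taken by name whatever their values, grouped by class between the grey lines, with 1 point per library, mdx in red above wild type in blue. Slc4a4 and Slc7a11 show the widest gaps between the groups, and the Slc20a1 points coincide near 975 per kb.

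The 25 Slc regions whose centre lies more than 1000 bases from the start were narrower, with a median width of 248 bases, against 532.5 for the promoter members. None of the 25 passed (limma), against 4.62% higher and 0.452% lower among all tested regions that far from a start or with no gene. At an unadjusted p under 0.05, 3 were lower and 4 higher, against 4.79% and 19.3% of all such regions. Their median log2 fold change was -0.12, and both mdx libraries lay below both wild type libraries in 8 (32.0%) and above in 8 (32.0%), against 16.9% and 35.2% of all such regions. The largest positive values were 1.14 for Slc26a10, 1.06 for Slc13a4 and 1.03 for Slc25a31. The Slc26a10 region held 41 and 28 in mdx and 13 and 17 in wild type (adjusted p = 0.175). The largest negative value was -1.23 for Slc17a7, the vesicular glutamate transporter, at 19 and 12 in mdx and 50 and 27 in wild type (adjusted p = 0.163). These 4 were chosen after their values were seen. Of 6 genes with both kinds of region, Slc9a9 had 0.51 at the promoter and 0.48 at the far region. Slc48a1 had -0.72 at the promoter and 0.41 further off, and no value of these 6 genes passed.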

How the data were processed

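Accessible regions were measured in 2 mdx and 2 wild type libraries. The submitters' processing notes name build mm10 and the tools MACS2 2.1.0, STAR 2.5.3a, Trimmomatic 0.33, DESeq, DESeq2 and Picard 2.9.0. What each tool did, how duplicates and the Tn5 offset were handled, and whether libraries were pooled for calling is not stated in the material used. The deposited numbers are a score: whole numbers obtained by the authors from reads with 1 factor per library, as the values themselves show. For mdx replicates 1 and 2 and for wild type replicate 1, the integers up to 400 missing from the table match those skipped by the factors (111, 56 and 73). Dividing by the factors (mdx 1.382 and 1.162, wild type 1.222 and 0.492) gave the recovered reads, which in wild type replicate 2 are good to about 1 read.

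A region entered the test if 2 or more libraries reached a value of 10. The test was limma 3.58.1 (R 4.3.3) with a trend, fitted to log2(value + 1) with group alone, and p-values were adjusted by Benjamini-Hochberg over all 33161 regions. Log2 fold changes are mdx over wild type on that scale, which understates changes of low regions. The fit was also run on simulated data, the outcome of which is not given here, and no result above rests on it. Intervals are exact binomial (SciPy 1.17.1). Classes follow the family number in the gene name alone, so Slc9a3r1 counts with the ion exchangers. Whether each member is itself a carrier was not checked. The members named are those that passed, 25 genes by name (1 more of that list is not reported here), the 5 highest and 5 lowest per kb, the largest positive and negative value of each class among members with a mean of at least 50, and the 5 smallest p among those not passing. Members, lists and tests were chosen with earlier results of these data known. Alternatives covered scaling, cyclic loess, filter, pseudocount, voom, distance window, omission of each library and a replicate block. The labels tie no same-numbered libraries together.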

Additional observations from a re-analysis of the deposited data

How the results depend on the processing

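The 3 calls (Slc4a4, Slc1a3, Slc22a3) all recurred when libraries were scaled by totals, when promoter medians were set equal, with a pseudocount of 0.1 and in both other distance windows. No filter left 2 (Slc22a3 lost), and voom called 3, of which 2 are shared. The number of members called lower was 8 (4.49%) with trimmed means, 47 (26.4%) with distal medians set equal, 9 (5.06%) with cyclic loess, 5 (4.03%) with a mean value of at least 50 and 6 (3.37%) with a pseudocount of 10. In that order, 3.58%, 21.5%, 2.82%, 6.77% and 3.34% of other promoters, and 609, 3465, 541, 725 and 580 of all regions, were lower. With all libraries, 0 members were called higher in each fit, against 0.253% to 1.97% of other promoters and 404 to 3394 of all regions. The cause of these moves was not tested, except that the mean value of at least 50 leaves 124 members. The median log2 fold change of the members was -0.11 with promoter medians set equal and -0.65 with distal medians set equal, scalings that shift all regions about alike. Without 1 library it ran from -0.41 to -0.24, and 0 members and 0 of all regions were called.

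With the replicate number as a block (replicate block), 9 members (5.06%) were called lower, against 3.56% of other promoters and 653 of all regions. Deviations of same-numbered libraries correlated at -0.109, and crossed pairing, chosen after seeing the data, called 29 lower (16.3%) and 0 higher, against 13.3% and 1.97% of other promoters, or 2067 and 3394 of all regions.

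Among 49 named regions tested, the sign turned with distal medians set equal for Slc20a1 (-0.33), Slc22a15 (-0.16), Slc25a33 (-0.04), Slc2a1 (-0.12), Slc2a4 (-0.28), Slc35e4 (-0.03), Slc36a4 (-0.12) and Slc39a11 (-0.29). It turned with promoter medians set equal for Slc39a10 (0.05) and Slc40a1 (0.0), with cyclic loess for Slc39a10 (0.22) and Slc39a11 (-0.11), with trimmed means for Slc20a1 (0.0), and with voom for Slc20a1 (-0.01) and Slc2a4 (-0.12). None of these values passed. Without 1 library the sign turned for Slc16a1 (-0.61 to 0.02), Slc20a1 (-0.04 to 0.04), Slc22a15 (-0.01 to 0.37), Slc25a20 (-0.01 to 0.87), Slc2a4 (-0.58 to 0.69), Slc39a11 (-0.10 to 0.19) and Slc40a1 (-0.45 to 0.05). With 2 libraries a group, regions with few reads limit what can be called: 12 members have a value below 10 in at least 1 library.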

Other observations

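A start of another gene on the opposite strand lay within 1000 bases of the start of 21 of the 172 Slc genes (12.2%). The Slc starts came from the deposited annotation and those of the neighbours from the RefSeq windows, which do not list every gene, so the count is a minimum. The 21 regions of these genes had a median log2 fold change of -0.30, and the other 157 tested members had -0.33. Among them, Slc3a2 lies opposite the noncoding gene Snhg1, Slc25a25 opposite Naif1, Slc39a9 opposite Erh and Slc38a6 opposite Trmt5. Base composition of the window was nearly unrelated to the log2 fold change among the Slc members, with a Spearman rho of 0.05 over 116 windows, against -0.19 over 6852 windows of other genes with a promoter region. The 17 Slc windows under 55% G and C had a median log2 fold change of -0.38, and the 99 others had -0.34. For other genes these medians were -0.16 and -0.28. The difference between the Slc members and the other genes was not tested, and the regions share their libraries. The 2 windows with TGATGNAA had a median of -1.34, which is the midpoint of Slc7a11 and Slc1a4.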
